A study of Capra hircus with 12 samples.

Results

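The 100 most abundant genes in the blood of Carpathian goats held between 20.1% and 31.6% of the reads assigned to genes in each animal. They were chosen by level alone, as the 100 gene identifiers with the highest mean CPM over 12 goats, where CPM is a gene's reads divided by all gene reads of the library, times 1000000. They are 100 of 27271 identifiers in the files, or 0.508% of the 19671 identifiers with any read. Whole blood RNA was sequenced from 12 female goats infected with small ruminant lentiviruses, 6 with low and 6 with high proviral load, 1 library per goat. Proviral load measures how much virus-derived DNA the host's cells carry, and it played no part in choosing the genes. The goats had been picked by provirus copy number and for likeness within their group, so neither group is a random draw from a herd, and age was not used here. Goats are named by group and number, as in low 4 or high 27.

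Blood RNA comes mainly from white cells, platelets and young red cells that still carry transcripts. In mammalian blood the most abundant messages commonly include globin chains, ribosomal proteins, cytoskeletal proteins such as actin, antigen presentation proteins and, where neutrophils are many, small calcium-binding proteins of the S100 family. All reads of a library share 1 total, so a gene that takes a larger share lowers the share of all others even where their own RNA is unchanged. Small ruminant lentiviruses infect cells of the monocyte and macrophage lineage, which are a minor part of blood leukocytes. In whole blood, fewer cells of a type and less RNA per cell cannot be told apart.

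None of the identifiers could be paired with a gene symbol here, so the members are given by identifier and their functions, sequences and positions are not used. For the same reason the label of blood could not be checked against marker genes. CPM is not divided by gene length, so the ranking is one of reads and not of RNA molecules, and long genes are favoured. Reads that aligned at several places, between 13.8% and 21.0% of all records in a library, are not in the gene counts. An abundant gene with near-identical copies can therefore stand too low in this ranking or be missing from it.

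Libraries held 6894973 to 19204978 gene reads, and every member was well covered. The fewest reads for any member in any library were 827, for ENSCHIG00000017796 in high 8. All 100 members passed the filter on low counts. In 3 libraries the depth was lowest: high 27 had 6894973 gene reads, high 6 had 8430250 and low 15 had 11010428, while the other 9 had at least 14047550. These 3 also had the largest shares of records overlapping several genes, at least 0.932% against at most 0.778% in the other 9, and the fewest detected genes, 12538 in high 27, 14825 in low 15 and 14961 in high 6 against at least 15924. The part of depth or RNA handling in the results on these libraries was not tested.

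No gene dominated any library. The largest share held by 1 gene in 1 goat was 1.79%, 6 members passed 1% of gene reads in some goat, and none passed 5%. The members together held 24.2% ± 3.58 of gene reads in low-load goats and 25.6% ± 4.11 in high-load goats (SD, n = 6 each). In the low group the lowest share was 20.1% (low 12), the median 23.9% and the highest 30.2% (low 15). In the high group the lowest was 22.0% (high 33), the median 23.5% and the highest 31.6% (high 27), with 30.0% in high 6. The groups overlapped over almost their whole range, and the shares above 26% were those of low 15, high 6 and high 27. Without these 3 libraries the mean share was 23.0% in low-load and 23.0% in high-load goats. The 10 most abundant members alone held 6.60% ± 0.761 and 6.59% ± 0.896. Between 294 (high 27) and 640 of each goat's most abundant genes were needed to reach 50% of its reads.

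**Figure D1:**
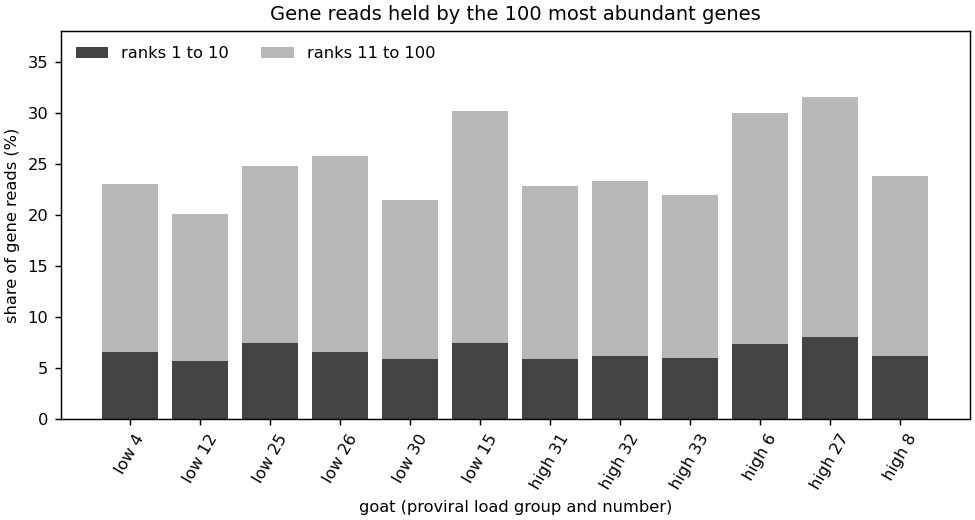
Share of gene reads (percent) held by members ranked 1 to 10 (dark) and 11 to 100 (light) in each goat; 1 bar is 1 library. Low 15, high 6 and high 27 reach about 30% or more, and the other 9 goats lie between 20.1% and 25.7%.

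The list was shared by most goats, though few genes were at the top in all of them. Each goat's own 100 most abundant genes included between 70 (high 27) and 89 (low 25) of the members. Of the 203 genes in any goat's own list, 40 were in all 12 lists, and all 40 were members. At the other end, 7 members were in the own lists of fewer than 6 goats. One of these was ENSCHIG00000014701, 13th in its best goat and 262nd in its worst. Lists chosen from low-load and from high-load goats alone shared 93 genes. At the edge of the list, ENSCHIG00000012390, ENSCHIG00000000139 and ENSCHIG00000012734 had mean levels of 1267.0, 1235.0 and 1218.5 CPM. The next 3 genes, outside it, were ENSCHIG00000009176, ENSCHIG00000014136 and ENSCHIG00000023211, at 1208.6, 1208.4 and 1203.0 CPM. Levels across the edge thus differed by less than the SD between goats of any of these genes, 188 CPM at the least.

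The gene with the highest mean level was ENSCHIG00000021911, at 11320.0 ± 4233 CPM (SD, n = 12). It was the most abundant gene in 7 of 12 goats. In low-load goats its lowest level was 6861 CPM (low 15), the median 9995 and the highest 17562 (low 4). In high-load goats the lowest was 5439 CPM (high 27), the median 13588 and the highest 17857 (high 8). The 2 groups cover nearly the same range, and the 3 lowest of the 12 levels were those of low 15, high 6 and high 27. In low 26, high 6 and high 27 the top gene was ENSCHIG00000013316, in low 15 ENSCHIG00000017983, and in low 25 ENSCHIG00000017796.

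Each of the next 8 genes of the ranking had at least 1984 CPM in every goat. ENSCHIG00000023708 averaged 8526.5 ± 1884 CPM and was among the 7 most abundant genes of every goat, with levels from 5807 to 11916 CPM. ENSCHIG00000013316 averaged 8032 ± 3352 CPM and ran from 4321 CPM in low 12 to 14994 CPM in high 27. ENSCHIG00000013968, at 6783 ± 1600.0 CPM, was among the 8 most abundant genes in all goats. ENSCHIG00000017983 averaged 6653 ± 2797 CPM; its median was 5665 CPM in low-load and 5353 CPM in high-load goats. The levels of ENSCHIG00000017983 in low 15 (13643 CPM), high 6 (9961 CPM) and high 27 (8865 CPM) were the highest of the 12.

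ENSCHIG00000019467 went the other way: it averaged 5527 ± 1967 CPM, with its lowest level, 2734 CPM, in high 27 and its highest, 8590.3 CPM, in low 4. ENSCHIG00000021644 was the steadiest of the first 10 on plain CPM, at 5048 ± 845 CPM, a 1.78-fold range between goats. ENSCHIG00000015368 averaged 4836 ± 1588 CPM. ENSCHIG00000014130 averaged 4626 ± 1387.5 CPM and was lowest in high 6, at 1984 CPM.

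The tenth member, ENSCHIG00000017796, differed from the 9 above it by its spread. Its mean of 4619 CPM had an SD of 5776 (n = 12). In low-load goats it had 237 CPM in low 4, 452 in low 26, 3484 in low 15, 6970.3 in low 12, 7811 in low 30 and 17854 in low 25. In high-load goats it had 44.5 CPM in high 8, 56.1 in high 32, 79.0 in high 31, 357.5 in high 33, 5987 in high 6 and 12092 in high 27. The levels lay in 2 ranges with nothing between 452 and 3484 CPM, and both groups had goats in both ranges. The highest level was 401-fold the lowest. Its own rank within a goat ran from 1 (low 25) to 3638 (high 8). Counting error is small beside this: the 827 reads of high 8 give an exact 95% Poisson interval of 41.5 to 47.6 CPM, which covers counting error only. On TMM-scaled values, which adjust each library for its composition, its SD of log2 CPM was 3.32, the 7th largest of 12941 tested genes at all levels.

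Among the other most variable members, ENSCHIG00000009275 (rank 32) ran from 520 CPM in high 8 to 9913 CPM in high 27, a 19.1-fold range. Its medians were 1269 CPM in low-load and 1043 CPM in high-load goats, with 7261 CPM in low 15. ENSCHIG00000024184 (rank 26) had medians of 2787 CPM in low-load and 1022 CPM in high-load goats and ranged 16.5-fold, from 491 CPM in high 33 to 8093 CPM in low 25. Its low and high levels followed ENSCHIG00000017796 in part, since low 25 and high 27 were highest for both. ENSCHIG00000014701 (rank 45) ran from 608 CPM in low 12 to 6009 CPM in high 6, and ENSCHIG00000000407 (rank 48) from 626 CPM in low 4 to 4664 CPM in high 27. For both of these genes, low 15, high 6 and high 27 stood above all other goats.

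**Figure D2:**
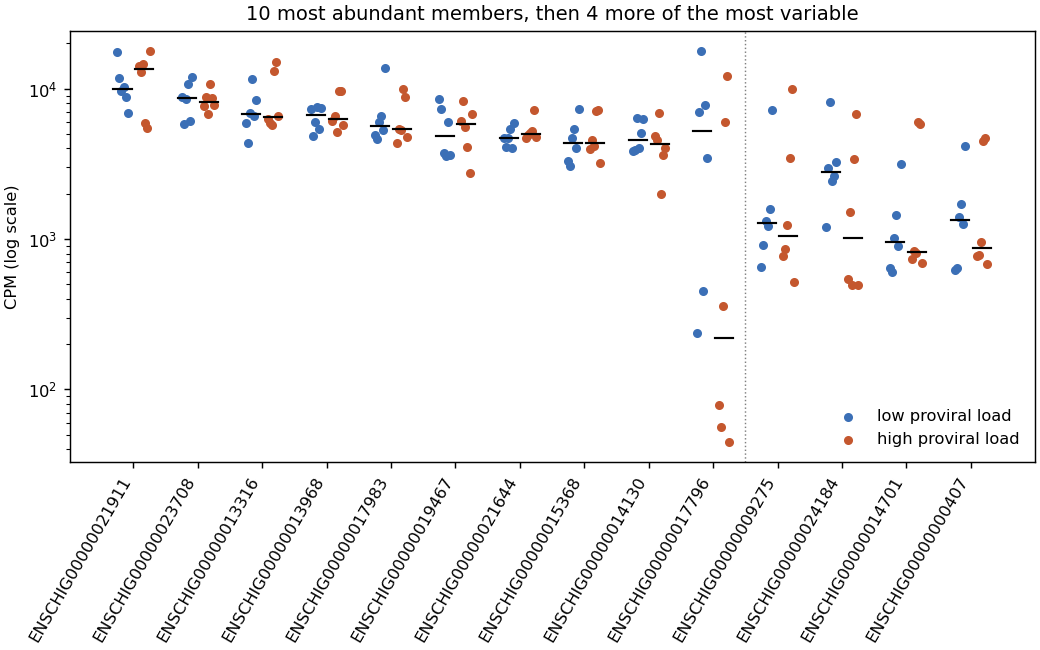
CPM on a log scale for the 10 most abundant members and, right of the dotted line, 4 more of the most variable; each point is 1 goat (6 low, 6 high) and the bar is the group median. ENSCHIG00000017796 spreads from 44.5 to 17854 CPM, while each of the other 9 leading genes stays within a 3.47-fold range, and the groups overlap for every gene shown.

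Beside these, some members varied little. On TMM-scaled values, the smallest SD of log2 CPM was that of ENSCHIG00000007953, at 0.14, with 2279 ± 367 CPM before scaling (SD, n = 12). ENSCHIG00000021332 had an SD of 0.17, ENSCHIG00000011800 of 0.20, ENSCHIG00000012390 of 0.22 and ENSCHIG00000006935 of 0.23. On plain CPM the same genes had SDs of 0.26, 0.39, 0.36, 0.26 and 0.32, each with its lowest level in low 15, high 6 or high 27. The order of the steadiest genes thus depends on the scaling. The TMM factors were 0.716, 0.884 and 0.747 in low 15, high 6 and high 27 and 0.934 to 1.21 in the other 9 libraries.

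The members varied between goats more than the genes just below them in level. The median SD of log2 CPM was 0.50 over the members and 0.39 over the next 900 tested genes on TMM-scaled values, and 0.48 and 0.41 on plain CPM. An SD above 1, on TMM-scaled values, was seen in 18 members (18%) and in 3.56% of the next 900 genes, and on plain CPM in 6 members and 1.67%. Over all tested genes, most of them at far lower levels, the median SD was 0.52 with TMM factors and 0.57 without. Without low 15, high 6 and high 27 the members' median was 0.38 and that of the next 900 was 0.30 on TMM-scaled values. On plain CPM these medians lay closer together, at 0.31 and 0.28. In those 9 goats 2 members had an SD above 1 under either scaling. Beside them stood 0.778% of the next 900 genes on TMM-scaled values and 1.11% on plain CPM. The ratio of the highest to the lowest CPM was 2.88 for the median member over 12 goats and 2.02 over those 9, and it passed 4-fold for 29 members over 12 goats and for 6 over the 9. A mean over goats favours genes that are very high in a few animals, so the choice of members leans towards spread. A ranking by the mean of log2 CPM kept 97 of the 100, by median CPM 90, and by mean CPM without low 15, high 6 and high 27 87. How far this lean accounts for the members' larger spread was not tested.

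**Figure D3:**
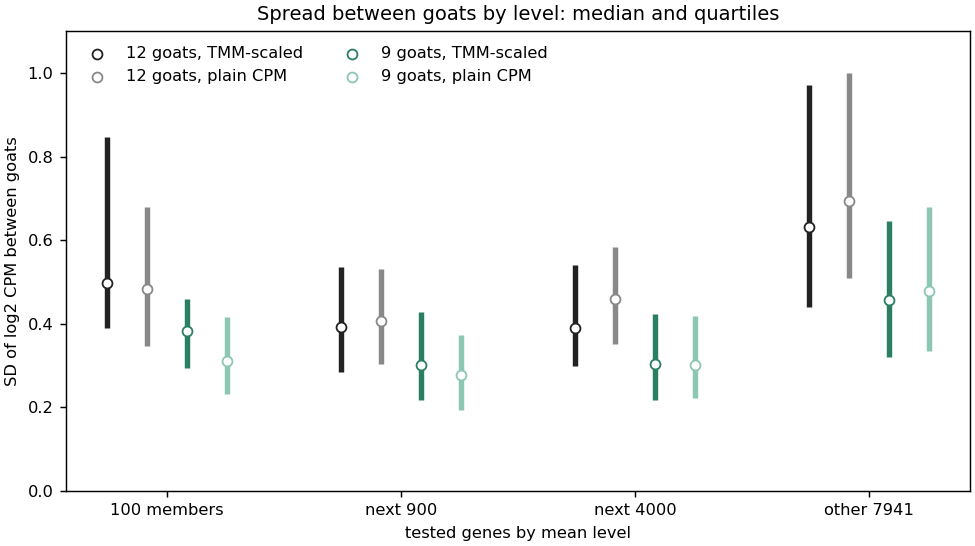
SD of log2 CPM between goats for the 100 members and for tested genes at lower mean levels (next 900, next 4000 and the other 7941); circles are medians over genes and bars run between the quartiles, for both scalings, with 12 goats and without the 3 libraries of fewest reads. With 12 goats and TMM factors the members' median is 0.50 against 0.39 for the next 900 genes.

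Much of the members' spread lay between the 3 libraries of fewest reads and the other 9. On plain CPM, 30 members had higher levels in all of low 15, high 6 and high 27 than in any other goat, and 17 had lower levels in all 3 than in any other; 53 did neither. Over all tested genes the same held for 5.08% and 15.5%, so the count of members in the lower block was close to the share over all tested genes. With TMM factors the counts were 38 members higher and 0 lower, beside 8.42% and 3.77% of all tested genes. The higher block was seen under both scalings and the lower block on plain CPM only, but the direction of this change was fixed in advance. The TMM factors of these 3 libraries, at most 0.884, were all below those of the other 9, at least 0.934. Scaling by them raises the 3 against the 9. Members of the higher block on plain CPM thus had to stay in it, and the lower block could only lose members. These 3 libraries were singled out for their depth after the data were seen, the blocks are defined by the same values, and the 3 hold 1 low-load and 2 high-load goats. The mean CPM that chose the members includes these 3 libraries, so the choice itself favours genes that are high in them. A ranking without them kept 87 of the 100 members. ENSCHIG00000014701, in the higher block, averaged 853 CPM in the other 9 goats. The excess of members in the higher block over all tested genes is therefore partly set by the choice.

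The block of 30 held 13.2% of gene reads in low 15, 14.4% in high 6 and 14.8% in high 27, against 3.75% to 7.44% in the other 9 goats. Its most abundant genes were ENSCHIG00000017983 and ENSCHIG00000015368, and it included ENSCHIG00000009275, ENSCHIG00000014701 and ENSCHIG00000000407 from the most variable members. ENSCHIG00000015368, for example, had 7131 CPM or more in these 3 libraries and at most 5362 CPM in the others. The block of 17 held 2.84%, 2.57% and 2.62% of gene reads in the same 3 libraries and 4.02% to 5.71% elsewhere; ENSCHIG00000021911 led it. The remaining 53 members held 13.0% to 14.1% in these 3 libraries and 12.0% to 14.8% in the others. The share of these 53 overlapped between the 3 libraries and the other 9. That the 30 hold more and the 17 less in these 3 libraries follows from how the blocks were chosen.

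**Figure D4:**
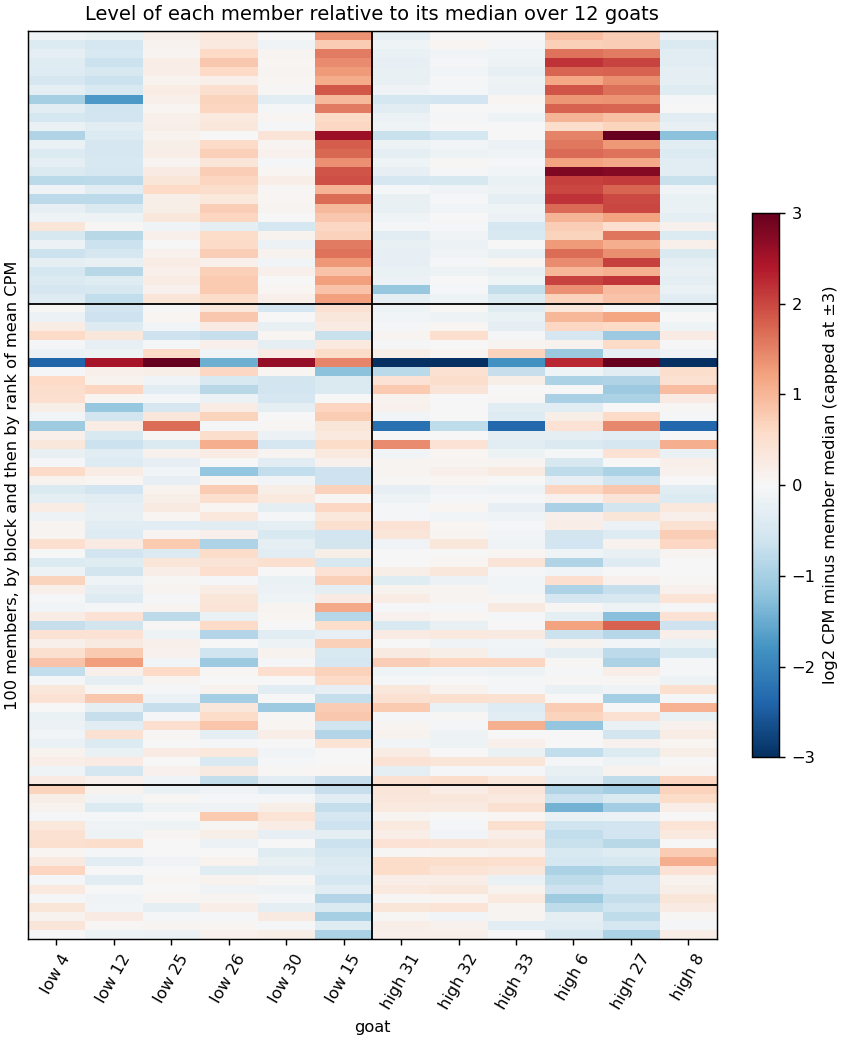
Log2 CPM of each of the 100 members (rows) in each goat (columns), minus the member's median over 12 goats, without TMM factors and capped at ±3; rows are split into 30 members highest in low 15, high 6 and high 27, 53 of neither kind and 17 lowest there, and the vertical line parts low from high load. Red cells fill the upper block in those 3 columns because its rows were chosen so. The single row of strong red and blue in the middle block is ENSCHIG00000017796.

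A Spearman rho above 0.8 across goats was more frequent among pairs of members than among pairs of tested genes in general. Of 4950 pairs of members, 18.4% had a Spearman rho above 0.8 over the 12 goats on TMM-scaled values, beside 1.69% of pairs of all tested genes; on plain CPM it was 13.8% beside 3.30%. A rho below -0.8 was seen in 0.707% of pairs of members on TMM-scaled values, beside 1.04% of pairs of all tested genes, and in 5.17% on plain CPM, beside 0.969%. The median rho was 0.33 for pairs of members and 0 for all pairs on TMM-scaled values. On plain CPM it was 0.07 and 0.17, so there the typical pair of members was less alike. These are descriptions over the same 12 libraries, and both sets share their depth and composition. Most tested genes lie at far lower levels, and pairs of genes just below the members were not compared. The members most like ENSCHIG00000021911 were ENSCHIG00000005813 (rho 0.93) and ENSCHIG00000006768 (rho 0.89), on TMM-scaled values of 12 goats. For ENSCHIG00000013316 they were ENSCHIG00000008397 (rho 0.99) and ENSCHIG00000000810 (rho 0.93). For ENSCHIG00000023708 they were ENSCHIG00000001921 (rho 0.97, but 0.59 on plain CPM) and ENSCHIG00000013968 (rho 0.96).

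ENSCHIG00000017796 was most like ENSCHIG00000024184 (rho 0.80) and ENSCHIG00000009275 (rho 0.73). It was least like ENSCHIG00000021911 (rho -0.88, the lowest with any member, on TMM-scaled values of 12 goats). The first and the tenth member of the list thus tended to opposite ends across these goats. ENSCHIG00000021911 was lowest in low 15, high 6 and high 27 on plain CPM. The rho of this pair on plain CPM, or without these 3 libraries, is not given here. Over the 9 goats other than low 15, high 6 and high 27, the rho of ENSCHIG00000017796 was 0.68 with ENSCHIG00000024184 and 0.73 with ENSCHIG00000009275. ENSCHIG00000009275 itself was most like ENSCHIG00000000407 (rho 0.93) and ENSCHIG00000017684 (rho 0.92), and ENSCHIG00000024184 was most like ENSCHIG00000014983 (rho 0.85) and ENSCHIG00000010055 (rho 0.82).

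Setting high-load against low-load goats asks whether the leading transcripts of blood differ with the amount of provirus. No difference between the groups was detected for any member: 0 of 100 passed an adjusted p of 0.05 in edgeR's quasi-likelihood test, fitted and adjusted over 12941 genes, of which 0% passed. At an unadjusted p under 0.05 there were 0 members, where 2.45% of all tested genes reached it (0.726% higher and 1.72% lower in high-load goats), and the smallest unadjusted p among members was 0.0588 in edgeR. For 0 members did the levels of the groups not overlap, beside 0.155% of all tested genes. DESeq2 and limma-voom with sample quality weights also called 0 members, the latter beside 0.131% of all tested genes; at an unadjusted p under 0.05 they gave 1 and 7 members, beside 3.18% and 17.9% of the genes each tested.

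The 2 members with the smallest p and higher values in high-load goats were ENSCHIG00000000139 and ENSCHIG00000008238. ENSCHIG00000000139 (rank 99) had 741 CPM at the lowest, 1033 at the median and 1438 at the highest in low-load goats. In high-load goats it had 714 CPM at the lowest (high 27), 1581 at the median and 1909 at the highest. The estimated log2 fold change was 0.44 ± 0.21 (SE); its 95% interval ran between -0.02 and 0.89, and edgeR gave an adjusted p of 0.9999. For ENSCHIG00000008238 (rank 67) the levels were 995, 1201 and 1612 CPM in low-load goats and 929 (high 6), 1918 and 2860.2 CPM in high-load goats, in the same order. Its log2 fold change was 0.47 ± 0.25 (SE; 95% interval -0.06 to 1.01; edgeR adjusted p = 0.9999), and 0.28 without high 8. For both genes, on plain CPM, 4 of 6 high-load goats lay above the highest low-load level, and the other 2, high 6 and high 27, lay below the low-load median.

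On the other side, ENSCHIG00000016684 (rank 41) had 1753 CPM at the lowest, 2343 at the median and 3237 at the highest in low-load goats, and 1078, 1896 and 2617 CPM in high-load goats. The estimate was -0.39 ± 0.28 (SE) on the log2 scale, with an adjusted p of 0.9999 from edgeR. It was -0.12 without low 15, whose level was the highest of the 12, and -0.0058 without low 15, high 6 and high 27. ENSCHIG00000011257 (rank 73) had medians of 1570 and 1259 CPM in low-load and high-load goats and an estimate of -0.26 ± 0.21 (SE) on the log2 scale, with the same adjusted p from edgeR; it was -0.16 without low 12. The ranges of the groups overlapped for both genes.

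Estimates for the most abundant and the most variable members were small or wide. ENSCHIG00000021911 had a log2 fold change of 0.12 ± 0.28 (SE; 95% interval -0.49 to 0.72; edgeR adjusted p = 0.9999); its sign turned when high 8 was left out. ENSCHIG00000017796 had one of -0.58 ± 1.33 (SE; 95% interval -3.43 to 2.27), so that a difference of several-fold in either direction remains possible for it. This estimate rested on single goats: it was 0.12 without low 25, -2.04 without high 27 and -5.66 without low 15, high 6 and high 27 (edgeR adjusted p 0.361), and limma-voom with quality weights gave -5.26 (adjusted p 0.102). ENSCHIG00000014701 had the highest estimate of all members, 0.99 ± 0.76 (SE; 95% interval -0.65 to 2.62). It too rested on single goats, at 1.71 without low 15, 0.58 without high 6 and 0.42 without high 27. Its sign turned without all 3 (-0.31), as it did with limma-voom and quality weights (-0.20).

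Over the 100 members the median log2 fold change was 0.07, and the median over all tested genes was -0.01. Values were above 0 for 64 members, beside 48.6% of all tested genes. That lean turned with the libraries and the method: 43 members were above 0 without high 27, 42 without low 15, high 6 and high 27, and 38 in limma-voom with quality weights, beside 47.8%, 46.7% and 50% of all tested genes. The 95% interval lay within 2-fold in either direction for 63 members, close to the 62.2% of all tested genes, and within 4-fold for 95. The 5 with wider intervals were ENSCHIG00000017796, ENSCHIG00000009275, ENSCHIG00000014701, ENSCHIG00000025540 and ENSCHIG00000012200, the last 2 of which were named after their values were seen.

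Leaving out low 15, high 6 and high 27 narrowed the intervals of the members. Their 95% interval then lay within 2-fold for 87 members, beside 65.6% of all genes tested in the remaining 9 goats. Still 0 members passed an adjusted p of 0.05 in edgeR, and 5 had an unadjusted p under 0.05, beside 7.75% of all genes tested. These were ENSCHIG00000000139, ENSCHIG00000008238, ENSCHIG00000017796 and ENSCHIG00000024184 together with ENSCHIG00000008320, which was named after its values were seen. On TMM-scaled CPM the groups no longer overlapped for ENSCHIG00000008238 and for ENSCHIG00000005604, likewise named afterwards, or 2 members beside 3.51% of all genes tested. ENSCHIG00000000139, whose groups of these 9 goats were apart on plain CPM, still overlapped on that scale. With 9 goats, groups that do not overlap arise more easily than with 12.

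**Figure D5:**
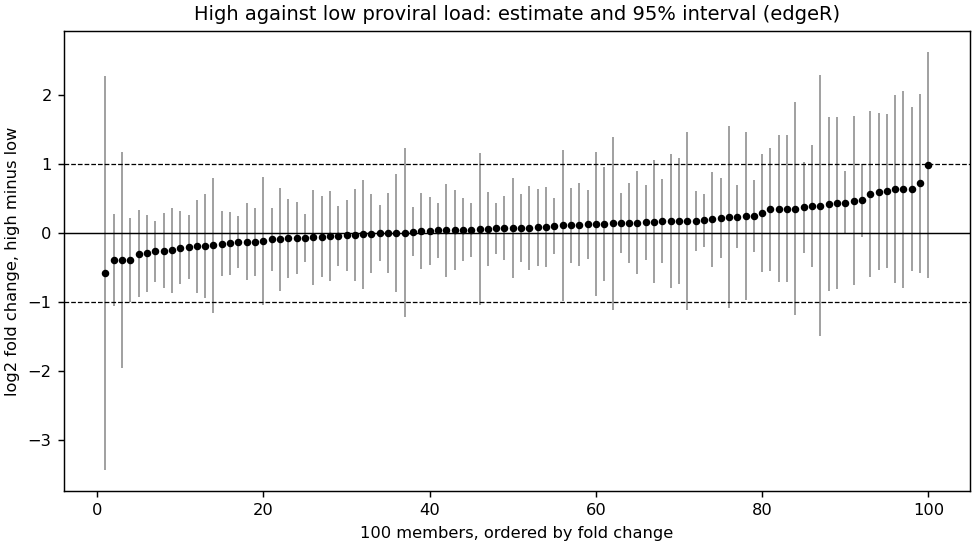
Log2 fold change of each member, high minus low proviral load, from edgeR (points) with its 95% interval (grey lines), members ordered by estimate; dashed lines mark 2-fold in either direction. All 100 intervals include 0, and the widest, at the far left, is that of ENSCHIG00000017796.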

How the data were processed

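Raw read counts for Ensembl goat genes were deposited by the authors, unnormalized and with a file for each animal. Per the labels' protocols, libraries were made with a TruSeq RNA v2 kit, which does not mark strand, so strand could not part a gene from an antisense partner. The submitters' processing notes list FastQC, TopHat, HTSeq and DESeq2; their settings, the build and the annotation: not given in the sources used here. The 5 HTSeq summary lines, 48.8% to 55.6% of the records of a file, name no gene and stayed out of totals and tests. No identifier matched the gene table used here, so lists and markers planned by symbol were not run.

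CPM was taken over gene reads. High was compared with low load by edgeR 4.0.16 (R 4.3.3; quasi-likelihood, robust, TMM, filterByExpr with a minimum count of 10, no covariate, 12 goats), with Benjamini-Hochberg adjustment over all tested genes. Log2 CPM used a prior count of 2. Alternatives used DESeq2 1.42.0, limma 3.58.1, other scalings, no filter, other ways of choosing 100 genes and each goat left out. The edgeR fit was tested on simulated counts with planted changes, in libraries that did not otherwise differ in composition. The other steps were not tested in this way.

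Members with values in the text are the 10 most abundant, the 5 most and 5 least variable, the 2 with the smallest p in each direction, the 3 on each side of the edge, the most alike, and those with the largest gaps. The members and lists were chosen with earlier results of these data known. Replicates are separate goats, and no batch is given.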

Additional observations from a re-analysis of the deposited data

Results flagged for a closer look

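In a group of 6 goats, a library was taken to stand apart when the gap to its nearest neighbour was over 0.625 of the group's range. Of 200 groups of values (100 members in 2 groups), 25 held such a library, or 12.5%, in 24 members. Chance gives about 1 in 20 for values that are independent and normally distributed. The screen used CPM without logarithms, and members go together, so 1 in 20 is no fair reference. Low 15 was the library in 17 of them and high 27 in 4. Other genes were not screened, so whether these libraries stand apart there as often was not tested.

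Among the members named in the text, low 15 stood apart from the other low-load goats for ENSCHIG00000017983 (13643 CPM), ENSCHIG00000009275 (7261 CPM), ENSCHIG00000014701 (3169 CPM), ENSCHIG00000000407 (4162 CPM), ENSCHIG00000025540 (3352 CPM) and ENSCHIG00000001921 (2063 CPM), each on the high side. It stood apart on the low side for ENSCHIG00000021332 (692 CPM). ENSCHIG00000010010, with 2285 CPM in low 15, is added for its gap, the 3rd largest. In the high group, high 27 stood apart for ENSCHIG00000021644 (7168 CPM), ENSCHIG00000009275 (9913 CPM) and ENSCHIG00000014983 (1505 CPM). Low 25 stood apart for ENSCHIG00000024184 (8093 CPM) and low 4 for ENSCHIG00000005813 (2252 CPM). The largest gap of all was that of ENSCHIG00000009275 in low 15, at 0.859 of the range. None of 5 measures of how reads concentrate in few genes had a library that stood apart in either group.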

How the results depend on the processing

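The count of 0 members called held in 19 alternatives, among them each goat left out (0 to 0). An unadjusted p under 0.05 was reached by 0 members in edgeR with 12 goats. It was reached by 1 in DESeq2, 7 in limma-voom with quality weights and 5 without low 15, high 6 and high 27. Beside these stood 3.18%, 17.9% and 7.75% of the genes each tested. With 1 goat left out it was reached by 0 to 4 members. There were 4 without low 15 and 3 without high 27, beside 3.42% and 4.63% of all genes tested. Groups did not overlap for 2 members without low 15, high 6 and high 27 and for 0 in the other settings. Members with an interval within 2-fold ran from 58 to 87. Other ways of choosing 100 genes kept 87 to 100 of the members, with 90 by median CPM and 98 by TMM-scaled CPM. The members' median SD ran from 0.38 to 0.52 over the alternatives, and on plain CPM without low 15, high 6 and high 27 it was 0.31. Over all records in place of gene reads, the members' share was 11.9% in low-load and 12.3% in high-load goats, since the HTSeq summary lines then enter the total. With 1 goat left out the mean share ran from 23.0% to 25.1% in the low group and from 24.4% to 26.3% in the high group. The log2 fold change of ENSCHIG00000021911 turned to -0.042 without high 8 (range -0.042 to 0.29 with 1 goat left out) and that of ENSCHIG00000017796 to 0.12 without low 25 (range -2.04 to 0.12); the cause was not tested. That of ENSCHIG00000014701 turned to -0.20 in limma-voom with quality weights and to -0.31 without low 15, high 6 and high 27, and ran from 0.42 to 1.71 with 1 goat left out. The 4 members with the smallest p kept their sign, but ENSCHIG00000016684 came down to -0.0058 without the 3 libraries; with 1 goat left out it ran from -0.50 to -0.12, ENSCHIG00000008238 from 0.28 to 0.60, ENSCHIG00000000139 from 0.34 to 0.54 and ENSCHIG00000011257 from -0.36 to -0.16. Leaving out 3 libraries was chosen after the data were seen. No paired analysis was possible because no goat number occurs in both groups. Counting error is small for every member, since the fewest reads were 827; other effects of depth were not tested.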
